A study of Arabidopsis thaliana with 9 samples.

Results

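Transcript levels in shoot apical meristems of Arabidopsis thaliana were compared between plants that had received any long day and plants kept in short days, to find changes common to 1 and 3 long days. All 9 libraries of the series entered the comparison. The 6 long-day libraries were 3 taken after 1 long day (LD1) and 3 taken after 3 long days (LD3), and the 3 short-day libraries (LD0) were taken before induction, per the labels. No short-day library was taken at the later time points, so long days cannot be told apart from elapsed time or plant age. The contrast was the mean of the LD1 and LD3 coefficients minus LD0, so each long-day time point weighed the same. It was fitted over every locus, with no choice by measured values. Of 23338 loci in the count table, 9300 had enough reads for the test and 14038 did not.

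All plants were of strain Col-0, and no mutant or transgene is named in the labels. Short days had 8 h of light and 16 h of darkness, and long days had 16 h of light and 8 h of darkness. The meristems were cut out with a laser, and their RNA was amplified and copied with random primers. Within each group, A and B were made as whole transcriptome shotgun libraries, while C is described as ready-to-run. The labels give no plant age, no number of plants per library and no statement that the letters are separate plant pools, so p-values cover only how these libraries vary, and that variation may be technical.

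A long day acts on the apex mainly through FT, a small protein that is made in leaf veins and travels to the meristem. There FT works with the bZIP factor FD to switch on SOC1, a MADS-box gene that integrates flowering signals, and later LFY and AP1, which give flowers their identity. Repressors such as FLC, SVP and the AP2 family hold the same targets down in the vegetative meristem, and TFL1 competes with FT for FD.

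Depth ranged from 97153 to 11145220 reads per library. LD3 C alone held 79.1% of all long-day reads and LD0 C held 91.4% of all LD0 reads. Values are given as reads per 1000000 of the TMM-scaled library size (CPM). The limit that a count of 0 allows, 3 reads, came to 25.3, 26.3 and 1.71 CPM in the LD0 libraries A, B and C, to 18.95, 4.67 and 6.39 CPM in the LD1 libraries and to 22.5, 1.97 and 0.320 CPM in the LD3 libraries. This limit covers counting error only. All 12 markers of the shoot apical meristem were in the table and 7 had reads in every library. Their summed level was 882 to 1503 reads per 1000000 in LD0 and 728 to 1697 in the long-day libraries. Of the 6 markers of trichomes and stomata 3 were in the table, at 0 to 4.12 reads per 1000000 in sum. Markers of leaf mesophyll stood at 329 to 803 reads per 1000000 in LD0. In the long-day libraries they stood at 201 to 1825, highest in LD1 A. Markers of vasculature stood at 29.7 to 370.5 in LD0 and at 0 to 534 in the long-day libraries, highest in LD0 B and LD1 B. Markers of seeds stood at 13920 to 59010 reads per 1000000 in LD0 and at 469.5 to 19260 in the long-day libraries, and those of pollen at 9.20 to 6979 and 78.4 to 9441. In tissue samples such as these, fewer cells of a type and less RNA per cell cannot be told apart.

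Across the transcriptome 2 genes fell after any long day and 0 rose, by edgeR's quasi-likelihood test with Benjamini-Hochberg adjustment over the 9300 genes. The calls made up 0.0215% of the genes tested. An unadjusted p under 0.05 was found for 791 genes (8.51%), of which 282 (3.03%) had higher and 509 (5.47%) had lower fitted values after long days. All 6 long-day libraries lay above all 3 LD0 libraries for 186 genes (2.0%) and below them for 125 genes (1.34%). With no filter on low counts these numbers were 188 and 216, so which side was larger depended on the filter. Some genes separate in this way by the order of the libraries alone, so these are not counts of changed genes. The fitted change was positive for 4641 genes (49.9%) and negative for 4659 (50.1%), with a median log2 change of −0.0032. Log2 changes had a median standard error of 1.10. By DESeq2, 19 genes were higher and 201 lower past the threshold (0.204% and 2.16% of the genes tested), and by limma-voom 34 and 25 (0.366% and 0.269%). These counts depend strongly on the tool.

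**Figure D1:**
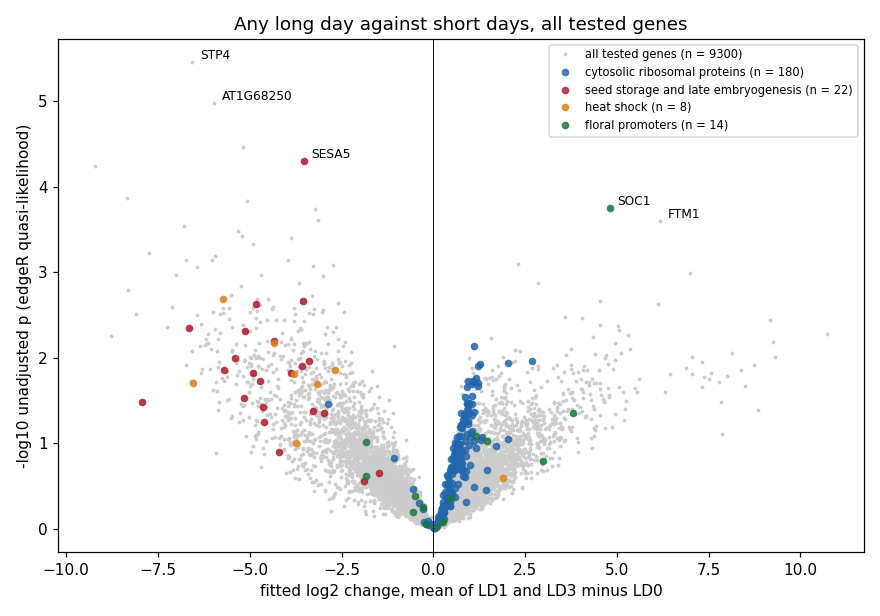
Fitted log2 change after any long day (x axis) against −log10 of the unadjusted p (y axis) for the 9300 tested genes, with 4 gene lists coloured. STP4 and AT1G68250 are the 2 genes that passed the adjusted threshold, ribosomal protein genes lie mostly right of 0, and all 22 seed genes lie left of it.

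The first of the 2 genes that fell was STP4 (AT3G19930), which encodes a plasma membrane transporter that carries monosaccharides into sink cells. STP4 stood at 42.2, 26.3 and 956.5 CPM in LD0 A, B and C, at 0, 0 and 2.13 CPM in LD1, and at 0, 1.97 and 51.4 CPM in LD3. The level in LD0 C rested on 1679 reads, and those in LD0 A and B on 5 and 3 reads. The groups overlapped, because LD3 C lay above LD0 A and B, while within each preparation every long-day library lay below its LD0 libraries. Its log2 change was −6.57 (SE 0.79, edgeR adjusted p = 0.0326).

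The other was AT1G68250, annotated as an uncharacterized protein. AT1G68250 stood at 17960, 980.5 and 8239 CPM in LD0, at 695, 121 and 170 CPM in LD1, and at 75.2, 30.8 and 92.1 CPM in LD3. The 6 long-day libraries all lay below the lowest LD0 library. Its log2 change was −5.98 (SE 0.80, edgeR adjusted p = 0.0494). Over the alternative settings that could test them, STP4 passed in 9 of 19 and AT1G68250 in 8 of 21, with a negative value in each. Neither passed without LD0 A, LD0 C, LD1 A, LD1 C or any LD3 library, at log2 changes of −6.46, −6.67, −6.55, −6.61, −6.46, −6.75 and −6.39 for STP4 (in the order of LD0 A and C, LD1 A and C, and LD3 A, B and C) and of −4.59, −6.03, −6.62, −5.79, −5.99, −5.78 and −6.34 for AT1G68250. Without LD0 B or LD1 B both passed.

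No gene rose past the threshold, and the smallest adjusted p of a gene with a positive change was 0.188, for SOC1 (AT2G45660). SOC1 had 0, 1 and 13 reads in LD0 A, B and C, or 0, 8.76 and 7.41 CPM. It stood at 316, 194.5 and 93.7 CPM in LD1 and at 225, 198 and 177 CPM in LD3. Every long-day library lay above every LD0 library, and also above what 3 reads stand for in each LD0 library. The log2 change was +4.81 (SE 0.88, unadjusted p = 0.00018 from edgeR), at +4.78 for LD1 and +4.84 for LD3. These last values share the LD0 libraries. SOC1 passed by DESeq2 (adjusted p = 9.26e-05), by limma-voom (0.0438) and by edgeR with no filter on low counts (0.00165). These were 3 of 21 alternative settings, which gave adjusted p from 9.26e-05 to 0.948 and log2 changes from 4.27 to 5.69. The edgeR fit with no filter gave AT1G68250 an adjusted p of 1.77e-66 at a nearly unchanged log2 change of −6.02. Passes in that fit are therefore to be read with caution.

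**Figure D2:**
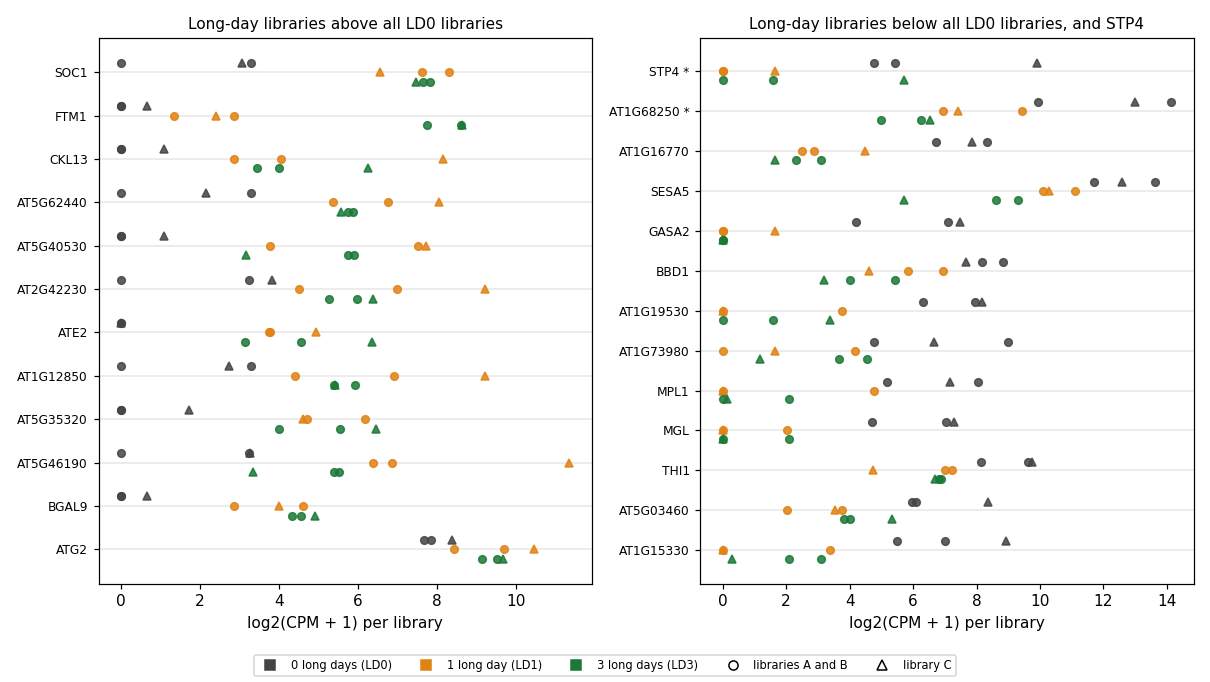
Level of each named gene in each library as log2(CPM + 1), with 12 genes whose long-day libraries all lie above LD0 (left) and 12 whose long-day libraries all lie below it, with STP4 (right). Colours give the time point, triangles are library C, and an asterisk marks an adjusted p under 0.05. FTM1 separates LD3 from LD1, and SOC1 does not.

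SOC1 was 1 of 12 genes named because their long-day libraries all lay above LD0 and their p was smallest among genes with a mean of at least 20 reads. None of the 12 passed by edgeR, while DESeq2 passed 10 (all but BGAL9 and ATG2), limma-voom 1 (SOC1) and edgeR with no filter on low counts 6. Over all tested genes DESeq2 called 0.204% higher and limma-voom 0.366%. The 12 were picked from these same counts for a small p, so passing by another tool is not separate support. FTM1 (AT1G43800), a stearoyl-acyl carrier protein desaturase named for the floral transition at the meristem, had 0, 0 and 1 reads in the LD0 libraries, 1, 1 and 2 in the LD1 libraries and 52, 327 and 3708 in the LD3 libraries. Its log2 change of +6.17 (SE 1.18, edgeR adjusted p = 0.215) averaged +2.89 for LD1 and +9.45 for LD3. The LD1 libraries held at most 2 reads of FTM1 each, within the limit of 3 reads, so a difference between LD0 and LD1 was not detectable at this depth. The mean over both time points therefore did not describe each of them in FTM1. The edgeR contrast of LD3 against LD1 gave FTM1 an unadjusted p of 1.79e-05 and an adjusted p of 0.166.

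ATG2 (AT3G51800) had the most reads of the 12. It encodes a metallopeptidase-family protein, also called EBP1, which promotes growth and cell division in plants, and is not the autophagy factor of the same symbol. It stood at 228, 201 and 329 CPM in LD0, at 821, 342 and 1410 CPM in LD1 and at 736, 559.5 and 817 CPM in LD3. The gap between LD0 C and LD1 B was narrow, and the other 5 long-day libraries were well above LD0. The log2 change was +1.56 (SE 0.46, edgeR adjusted p = 0.487).

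AT5G62440, annotated EMB514, stood at 0, 8.76 and 3.42 CPM in LD0, at 107, 40.5 and 262 CPM in LD1 and at 52.6, 57.7 and 46.4 CPM in LD3, a log2 change of +4.53 (SE 1.15). SOC1, AT5G62440 and ATG2 were the 3 of the 12 whose long-day libraries all lay above what 3 reads stand for in LD0 A and B. Over all 186 genes with long-day libraries above LD0, 97 cleared that limit and 82 had an LD0 library at 0 reads. For the rest a low level in LD0 A or B could not be told from a missed transcript.

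The remaining 8 of the 12 had positive fitted changes, from +4.05 to +6.98 on the log2 scale apart from ATE2, and adjusted p from 0.358 to 0.487 (edgeR). They were the casein kinase gene CKL13 (AT1G04440), the methyltransferase gene AT5G40530, the C-CAP/cofactor C-like gene AT2G42230, the arginyl-tRNA transferase gene ATE2 (AT3G11240), the phosphoglycerate mutase family gene AT1G12850, AT5G35320, the KH-domain RNA-binding gene AT5G46190 and the beta-galactosidase gene BGAL9 (AT2G32810). LD1 C was the highest long-day library for 7 of the 12 genes and for 68 of the 186 (36.6%), against 21.4% of all tested genes. AT5G46190 shows this, with 1224 reads (2606 CPM) in LD1 C and 9.18 to 115 CPM in the other long-day libraries. LD1 C also had 0.970% of its reads on the 2 rRNA loci in the table, against 0.00294% to 0.250% in the other libraries. Without LD1 C the log2 change of AT5G46190 was +2.54, beside +5.07 with it, and it ranged up to +6.01 over the other settings. Without LD1 C no gene was called, and 280 genes had long-day libraries above LD0 and 150 below. This was not particular to LD1 C. No gene was called without LD0 A, LD0 C, LD1 A or any LD3 library either. The split was 297 and 188 without LD1 A and 275 and 178 without LD3 A. With fewer libraries to compare, separation is easier to reach.

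Below LD0, the 12 genes named by the same rule were led by AT1G68250, AT1G16770 and SESA5. By edgeR AT1G68250 alone passed, while DESeq2 passed all 12, limma-voom 8 (all but AT1G73980, MPL1, MGL and AT1G15330) and edgeR with no filter on low counts 11 (all but AT5G03460). Without LD1 B edgeR passed 6 of the 12. Over all tested genes DESeq2 called 2.16% lower, limma-voom 0.269% and edgeR without LD1 B 0.5%. These 12 were also picked from the same counts for a small p, so such passes are not separate support. AT1G16770, an uncharacterized protein, stood at 321, 105 and 230 CPM in LD0 and at 2.14 to 21.3 CPM in the long-day libraries, a log2 change of −5.18 (SE 0.79, edgeR adjusted p = 0.106). SESA5 (AT5G54740), a seed storage albumin, stood at 12590, 3362 and 6203 CPM in LD0, at 1099, 2183 and 1241 CPM in LD1 and at 639, 387 and 51.2 CPM in LD3. Each LD3 library of SESA5 lay below each LD1 library, and each LD1 library below each LD0 library. Its log2 change was −3.53 (SE 0.56, edgeR adjusted p = 0.107).

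GASA2 (AT4G09610), of a family of small cysteine-rich peptides, had 16, 2 and 308 reads in LD0 and 1 read in all 6 long-day libraries, in LD1 C. Divided by the pooled totals of 14095893 long-day and 2393111 LD0 reads, the ratio of long-day to LD0 reads was 0.000521 (95% counting interval 1.32e-05 to 0.00292). Without LD3 C, which had most of those long-day reads and none of GASA2, it was 0.00249 (6.28e-05 to 0.01396). THI1 (AT5G54770), which makes the thiazole part of thiamine, stood at 785, 280 and 850 CPM in LD0, at 126, 148 and 25.6 CPM in LD1 and at 113, 117 and 103 CPM in LD3. The 3 LD3 values of THI1 were close together and all were below the lowest LD0 value. Its log2 change was −2.73 (SE 0.61, edgeR adjusted p = 0.322).

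BBD1 (AT1G75380), a nuclease of basal defence, stood at 456, 289 and 202 CPM in LD0 and at 8.22 to 121 CPM in the long-day libraries. The methionine gamma-lyase gene MGL (AT1G64660) had 3, 15 and 270 reads in the LD0 libraries, 0, 2 and 0 in the LD1 libraries and 0, 5 and 0 in the LD3 libraries. The aphid-induced lipase gene MPL1 (AT5G14180) had 31, 4 and 251 reads in the LD0 libraries, 0, 17 and 0 in the LD1 libraries and 0, 5 and 1 in the LD3 libraries. With AT1G19530, AT1G73980, AT5G03460 and AT1G15330, these genes had log2 changes from −6.73 to −3.22 and adjusted p from 0.188 to 0.322 (edgeR).

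LD1 B was the highest long-day library for 6 of the 12 lower genes and for 43 of the 125 (34.4%), against 21.02% of all tested genes. LD0 B was the lowest LD0 library for 10 of the 12 and for 63 of the 125 (50.4%), against 32.6% of all tested genes. Of the 125, 102 had LD0 levels above what 3 reads stand for in every long-day library.

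**Figure D3:**
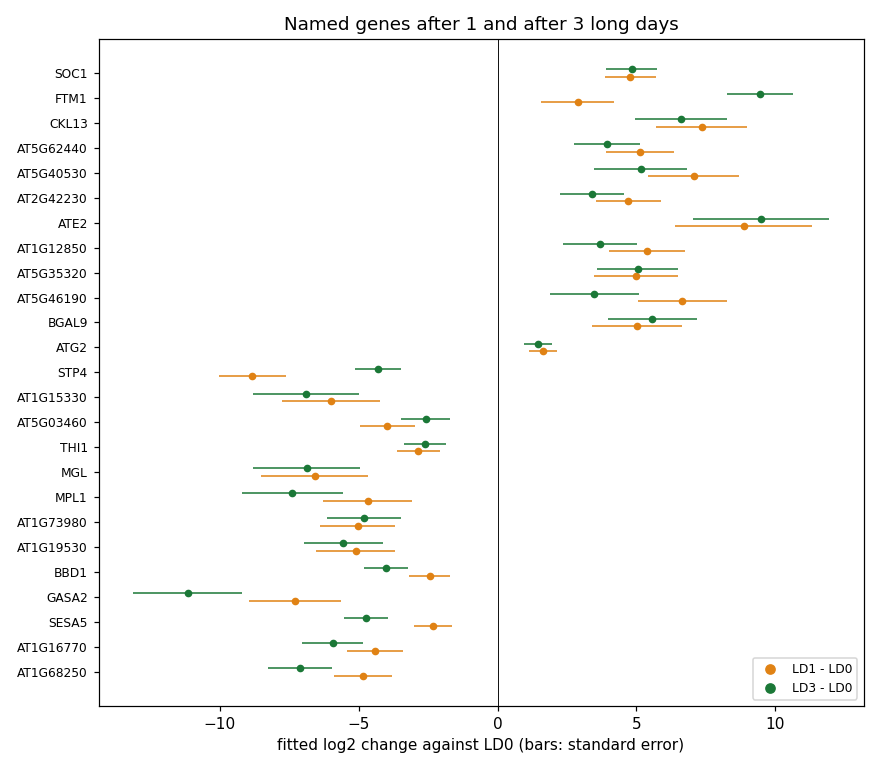
Fitted log2 change against LD0 for LD1 (orange) and LD3 (green) of the 24 genes named by separation of the libraries and of STP4, with standard errors as bars. The values of each gene share the LD0 libraries. For ATE2, which had 0 reads in LD0, and GASA2, which had 0 in LD3, the fitted size depends on the prior count.

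Some loci had reads on one side only. Reads in all 6 long-day libraries and none in LD0 were found for 9 loci. Those with most reads were ATE2 with 792 long-day reads, the MuDR-family transposase gene MUG3 (AT1G06740) with 591, the RING/U-box gene AT1G63840 with 116, AT4G30390 with 72 and AT3G02460 with 47. ATE2 had 753 of its reads in LD3 C and MUG3 563, while AT1G63840 had 5, 46 and 24 reads in the LD1 libraries and 1, 34 and 6 in the LD3 libraries. No fold is given for these loci, because 0 reads allow up to 25.3 and 26.3 CPM in LD0 A and B, above most of their levels in the long-day libraries. ATE2, for example, stood at 7.87 to 29.8 CPM in the long-day libraries other than LD3 C, where it reached 80.4 CPM.

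Reads in all 3 LD0 libraries and none in the long-day libraries were found for 12 loci. PIRL8 (AT4G26050), a leucine-rich repeat gene, had 3, 4 and 18 reads, or 25.3, 35.0 and 10.3 CPM, in LD0 A, B and C. The next by reads were the resistance gene RPM1 (AT3G07040), EHB1 (AT1G70800), CYP86A7 (AT1G63710) and the kinase gene AT2G40560. These 5 loci had 7 to 25 reads in all of LD0. No fold is given for them either, because 0 reads allow up to 18.95 CPM in LD1 A and 22.5 CPM in LD3 A.

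The floral promoter list had 28 loci in the table and 14 tested, of which 0 passed in either direction. The tested genes had a median log2 change of +0.16, with 8 positive and 6 negative, beside −0.0032 over all tested genes. SOC1 was the 1 member with long-day libraries above LD0 (7.14%, beside 2.0% of all tested genes). FD (AT4G35900) stood at 186, 298 and 46.1 CPM in LD0, at 499, 216 and 313 CPM in LD1 and at 601, 262 and 193 CPM in LD3. LD0 B of FD lay above 3 long-day libraries, and the log2 change was +1.17 (SE 0.62). FT (AT1G65480) had 4, 0 and 7 reads in the LD0 libraries, 232, 12 and 0 in the LD1 libraries and 1, 2 and 249 in the LD3 libraries, so most of its reads lay in 2 libraries. Its log2 change was +2.99 (SE 1.999), and without LD3 C it was −0.13.

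SPL9 (AT2G42200) and SPL15 (AT3G57920), which act in the age pathway of flowering, had log2 changes of +3.80 (SE 1.68) and +1.47 (SE 0.80). SPL9 had 0, 0 and 2 reads in the LD0 libraries, 2, 7 and 0 in the LD1 libraries and 2, 22 and 353 in the LD3 libraries. SPL15 stood at 50.7, 35.0 and 75.2 CPM in LD0 and reached 737 CPM in LD3 C, while LD3 A had 30.1 CPM, below every LD0 library. AGL24, a MADS-box partner of SOC1, had a log2 change of −0.51 (SE 0.60), and FLOR1, a leucine-rich repeat protein gene, of +0.49 (SE 0.61).

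Of the floral repressors 23 loci were in the table and 9 were tested, with a median log2 change of +0.69, 6 positive and 3 negative, and none passed. AP2 (AT4G36920), which represses SOC1 and specifies outer floral organs, was the 1 member with long-day libraries above LD0 (11.1%, beside 2.0% of all tested genes). It stood at 42.2, 105 and 99.1 CPM in LD0, at 177, 185 and 296 CPM in LD1 and at 188, 163 and 309 CPM in LD3. The lowest long-day value lay above the highest LD0 value in a gene with reads in all 9 libraries. The log2 change was +1.36 (SE 0.57, edgeR adjusted p = 0.55). TOE2, an AP2-like repressor, had a log2 change of −2.93 (SE 1.08, edgeR adjusted p = 0.502). SVP stood at 59.1, 131 and 314 CPM in LD0 and at 118 to 465 CPM after long days, and its log2 change was +0.69 (SE 0.52).

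TFL1 (AT5G03840) had 0, 1 and 272 reads in the LD0 libraries, 8, 18 and 1 in the LD1 libraries and 3, 14 and 78 in the LD3 libraries. Its log2 change of −1.25 (SE 1.85) rested on library C, and without LD0 C it was +2.49. FLC (AT5G10140) had too few reads for the test, with 0, 4 and 9 in the LD0 libraries, none in LD1 and 0, 5 and 6 in the LD3 libraries.

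Cytosolic ribosomal protein genes, the parts of the machinery that makes proteins, were the largest list, with 180 tested of 201 loci. None passed in either direction, while 169 had positive and 11 negative fitted changes. Their median log2 change was +0.61, with 18 genes whose long-day libraries lay above LD0 (10%, beside 2.0% of all tested genes) and 1 below. An unadjusted p under 0.05 was found for 29 positive (16.1%, beside 3.03%) and 1 negative. Ribosomal genes took 10.19%, 10.95% and 10.14% of the reads in LD0 A, B and C, 17.63%, 10.36% and 18.40% in LD1 and 18.13%, 18.99% and 21.06% in LD3. LD1 B lay within the LD0 range, and the other 5 long-day libraries lay above it. The means were 10.43% ± 0.452 (SD, n = 3) in LD0 and 17.43% ± 3.66 (SD, n = 6) after long days.

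The 4 ribosomal genes with the smallest p among those with separate libraries were AT3G43980, AT5G67510, AT1G52300 and AT3G62870, which encode proteins S29, L26, L37 and L7A by the authors' descriptions. AT1G52300 stood at 1182, 1322 and 1621 CPM in LD0, at 1769, 1991 and 11270 CPM in LD1 and at 2547, 2582 and 4388 CPM in LD3. AT3G62870 stood at 811, 683 and 826 CPM in LD0 and at 924 to 3445 CPM after long days. Their log2 changes were +1.23 (SE 0.41) and +1.07 (SE 0.39), and both had an adjusted p of about 0.5 (edgeR, 0.487 and 0.502). AT5G67510 stood at 25.3, 17.5 and 46.1 CPM in LD0 and at 56.0 to 236 CPM after long days. Most ribosomal proteins are encoded by several near-identical loci, and the handling of reads that match more than 1 locus is not stated, so the level of a single copy is uncertain. The median was +0.59 in libraries A and B and +0.71 in library C, on a log2(CPM + 2) scale. In edgeR's fit on libraries A and B alone it was +0.34, and after thinning to equal depth +0.36. Under RLE size factors, which moved the median of all genes to −0.18, it was +0.45.

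**Figure D4:**
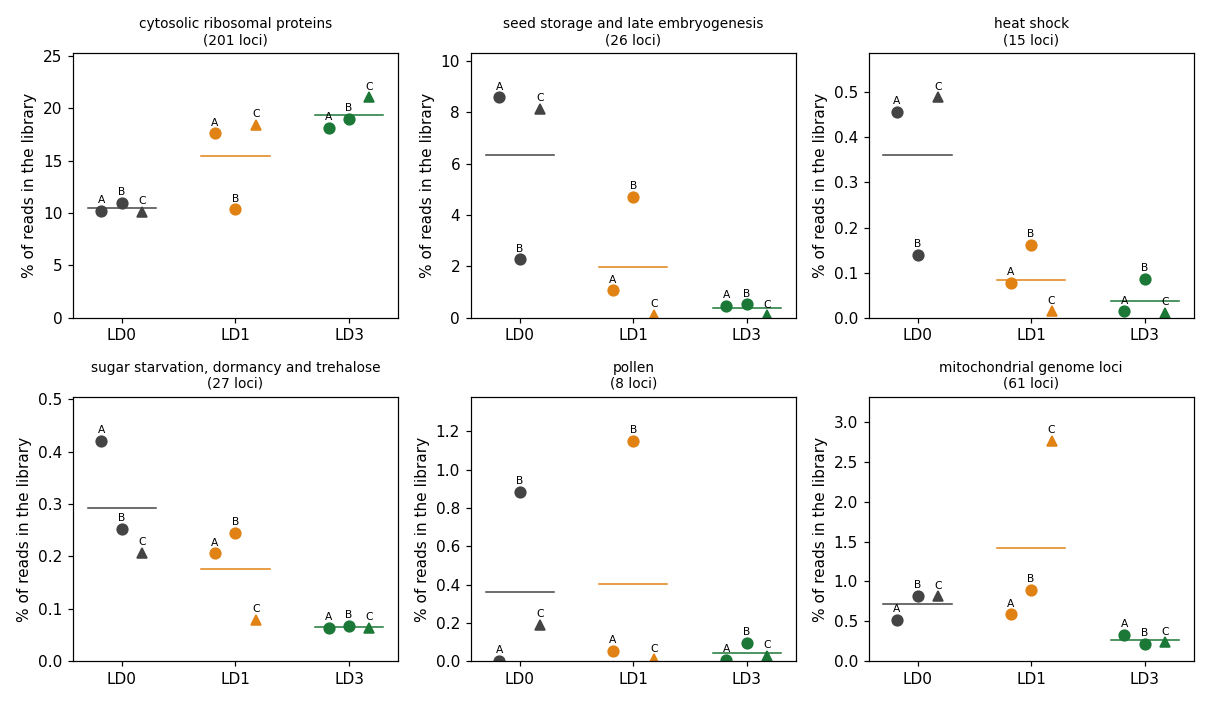
Share of the reads of each library taken by 6 gene lists, with letters A, B and C beside the points, triangles for library C and lines for the group means. The ribosomal share is above all LD0 libraries in 5 of 6 long-day libraries. Seed and pollen shares are higher in LD1 B than in the other long-day libraries.

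Nucleolar genes of ribosome assembly had 6 tested members with a median log2 change of +0.14, from −0.35 for FIB1 to +0.42 for FIB2. Both encode fibrillarin, which modifies ribosomal RNA.

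Seed storage and late-embryogenesis genes, which fill and protect the dry seed, had 22 tested members of 26 loci. All 22 had negative fitted changes, with a median log2 change of −4.49, and 0 passed. An unadjusted p under 0.05 was found for 18 (81.8%, beside 5.47% of all tested genes), and 3 had all long-day libraries below LD0 (13.6%, beside 1.34%). Those 3 were SESA5, LEA4-5 (AT5G06760) and LEA4-1 (AT1G32560). LEA4-5 stood at 963, 499 and 1225 CPM in LD0, at 25.3, 274 and 0 CPM in LD1 and at 75.2, 53.1 and 7.79 CPM in LD3. LEA4-1 stood at 2255, 1129 and 4314 CPM in LD0 and at 0 to 621 CPM after long days, highest in LD1 B.

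The list took 8.59%, 2.27% and 8.14% of the reads in LD0 A, B and C, 1.07%, 4.70% and 0.1005% in LD1 and 0.469%, 0.522% and 0.0878% in LD3. LD1 B lay above LD0 B, and the other 5 long-day libraries lay below all of LD0. The most abundant member was EM6 (AT2G40170), a late-embryogenesis protein gene, at 17520, 2443 and 28710 CPM in LD0 and at 872, 3982 and 0 CPM in LD1. CRU3, a cruciferin storage globulin, stood at 5211, 3265 and 4792 CPM in LD0 and reached 4155 CPM in LD1 B. HSFA9, the heat shock factor of seeds, had a log2 change of −4.64 (SE 1.98), and the abscisic acid factor ABI5 of −4.19 (SE 2.55).

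The seed median was −2.49 in libraries A and B and −7.37 in library C, on a log2(CPM + 2) scale. It was −2.34 without LD0 C, and between −6.24 and −3.08 without each of the others. DESeq2 called 13 of the 22 lower (beside 2.16% of all genes), limma-voom 1 (beside 0.269%), and edgeR without LD1 B called 4 (beside 0.5%), which were SESA5, PAP85, LEA4-5 and PER1. Seed transcripts are not a product of the meristem as usually described, and where these reads came from was not tested.

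Heat shock genes had 8 tested of 15 loci, with a median log2 change of −3.77, 7 negative and 1 positive, and 0 passed. An unadjusted p under 0.05 was found for 6, all negative (75%, beside 5.47% of all tested genes). The chaperone gene HSP101 stood at 346, 403 and 107 CPM in LD0, at 75.8, 224 and 0 CPM in LD1 and at 7.51, 71.5 and 11.8 CPM in LD3, so LD1 B overlapped LD0 C. Its log2 change was −2.69 (SE 0.93). The small heat shock gene HSP17.6A stood at 1275, 219 and 2061 CPM in LD0 and at 0 to 341 CPM after long days, with −4.35 (SE 1.32). GolS1, which makes galactinol, had −5.73 (SE 1.45). MBF1C, a heat-response coactivator, was the positive member, at +1.90 (SE 1.58). Without LD0 C the median was −2.12. Several of these genes are also expressed in maturing seeds. The heat shock share was 0.457%, 0.139% and 0.489% of reads in LD0 beside 0.0114% to 0.162% after long days. Its highest long-day value was in LD1 B, as for the seed list. Within LD0, the heat shock share was lowest in LD0 B, as was the seed share (2.27%). HSP17.6A was also lowest there, and HSP101 was highest there. Where the heat shock reads came from was not tested.

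Genes of sugar starvation, dormancy and trehalose metabolism had 17 tested of 27 loci, with a median log2 change of −1.60, 5 positive and 12 negative. STP4 was the 1 member that passed, and it fell. The dormancy-associated genes DYL1 (AT1G28330) and DRM2 (AT2G33830) had log2 changes of −4.36 (SE 1.32) and −3.79 (SE 1.04). DRM2 stood at 2559, 210 and 46.1 CPM in LD0, at 689, 54.5 and 155 CPM in LD1 and at 7.51, 7.87 and 4.27 CPM in LD3. LD1 overlapped LD0 in DRM2 and LD3 did not. ASN1, the dark-induced asparagine synthetase, had −4.31 (SE 1.92), and DIN10, a raffinose synthase family gene, had +2.32 (SE 0.89). The other monosaccharide transporters tested, STP1 and STP13, had log2 changes of +0.43 (SE 0.91) and −2.57 (SE 1.35). The median was −0.36 without LD0 C and −0.48 in libraries A and B on a log2(CPM + 2) scale.

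Cold, drought and abscisic acid genes had 9 tested members with a median log2 change of −0.93, and the dehydrin XERO2 had −5.02 (SE 1.96). None passed.

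**Figure D5:**
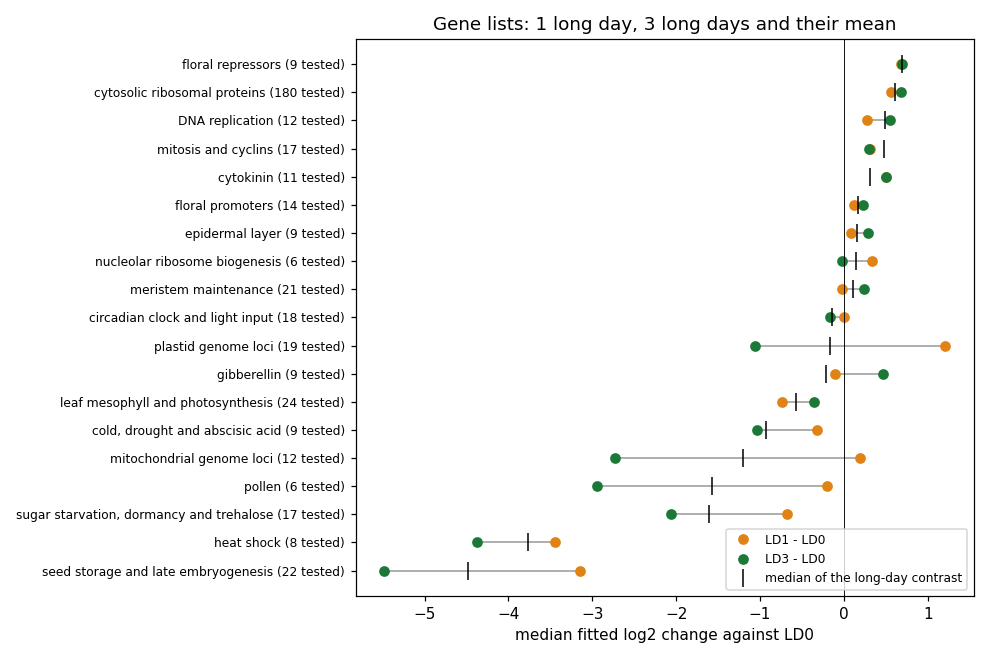
Median fitted log2 change of the tested members of 19 gene lists for LD1 against LD0 (orange), LD3 against LD0 (green) and the long-day contrast (black tick). Values for LD1 and LD3 share the LD0 libraries. Seed and heat shock lists are lowest at both time points. Mitochondrial and plastid lists have opposite signs for LD1 and LD3, as do, with smaller gaps, the gibberellin, meristem, nucleolar and clock lists.

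Clock and light-input genes had 18 tested members with a median log2 change of −0.14, 8 positive and 10 negative, and none passed. GRP7 (AT2G21660), a clock-controlled RNA-binding protein that promotes flowering, stood at 2339, 3519 and 1976 CPM in LD0, at 2457, 1960 and 1041 CPM in LD1 and at 1368, 1411 and 400.5 CPM in LD3. All 3 LD3 libraries lay below LD0, and LD1 A lay within it. The log2 change was −1.08 (SE 0.33, edgeR adjusted p = 0.487). GRP8 had −2.01 (SE 0.74) and RVE8, a morning factor, −2.98 (SE 1.35). GI, which opens the photoperiod pathway, had +1.79 (SE 1.26). The labels do not state at what time of day each group was dissected.

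Photosynthesis genes had 24 tested members with a median log2 change of −0.58, 9 positive and 15 negative, at +0.65 in libraries A and B and −2.01 in library C on a log2(CPM + 2) scale. None passed. PSBP-1 (AT1G06680), a subunit of the oxygen-evolving complex, stood at 16.9, 35.0 and 1043 CPM in LD0, at 183, 91.8 and 4878 CPM in LD1 and at 188, 226 and 2596 CPM in LD3. Library C was far above A and B in every group, and within each preparation every long-day library lay above LD0. Its log2 change was +2.31 (SE 0.51, edgeR adjusted p = 0.322). PSBO1, of the same complex, had +1.64 (SE 0.59), and the antenna gene CAB1 +1.97 (SE 0.96). The most negative members were the antenna genes LHCB2.1 and LHCB2.2, with −2.41 (SE 1.48) and −2.38 (SE 3.10), and the Calvin cycle kinase gene PRK, with −2.05 (SE 1.54).

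Genes that maintain the meristem had 21 tested members, with a median log2 change of +0.11, 11 positive and 10 negative, and none passed. STM, the homeobox gene that keeps cells undifferentiated, had +0.91 (SE 0.71). CLV3 (AT2G27250), the peptide that limits the stem cells, stood at 355, 254 and 529 CPM in LD0 and at 173 to 520 CPM after long days, with −0.36 (SE 0.49). WUS, which CLV3 restrains, had 20 reads in LD0 and 12 after long days and was not tested. PNF (AT2G27990), a BELL homeobox gene needed for the floral transition together with BLR, was the 1 member with long-day libraries above LD0 (4.76%, beside 2.0% of all tested genes). It had 0, 1 and 5 reads in the LD0 libraries, 2, 33 and 20 in the LD1 libraries and 3, 26 and 176 in the LD3 libraries, with +2.87 (SE 1.26). BLR itself had +1.70 (SE 1.12). ATH1, a related gene, had −1.70 (SE 0.91).

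DNA replication genes had 12 tested members with a median log2 change of +0.49, and mitosis and cyclin genes 17 with +0.47. None passed. The helicase subunit MCM2 had +1.30 (SE 0.50), and stood at 33.8, 52.5 and 347.5 CPM in LD0, at 114, 103 and 937 CPM in LD1 and at 120, 132 and 633 CPM in LD3. As in PSBP-1, every long-day library lay above LD0 within its preparation. MCM3 and MCM5 had +1.26 (SE 0.70) and +1.25 (SE 0.63), MCM4 and MCM6 −0.47 (SE 0.73) and −0.54 (SE 1.08), and the mitotic cyclin CYCB1;1 +1.95 (SE 0.91).

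Cytokinin genes had 11 tested members with a median log2 change of +0.32, and none passed. ARR4 (AT1G10470), a response regulator induced by cytokinin, stood at 50.7, 78.8 and 44.4 CPM in LD0, at 82.1, 177 and 294 CPM in LD1 and at 158, 139 and 103 CPM in LD3. Its lowest long-day value was just above the highest LD0 value, and the log2 change was +1.41 (SE 0.67). ARR7, of the same family, had +1.25 (SE 0.71), and CKX3, a cytokinin oxidase, +4.15 (SE 1.53).

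Gibberellin genes had 9 tested members with a median log2 change of −0.22, and none passed. GA20OX2 (AT5G51810), an enzyme of gibberellin synthesis, had 0, 0 and 7 reads in the LD0 libraries, 1, 18 and 104 in the LD1 libraries and 2, 30 and 91 in the LD3 libraries, with +4.52 (SE 1.56). LD1 A held 1 read of it and LD3 A 2, both within the limit of 3. The DELLA repressor gene RGL1 had no reads in any LD0 library, 0, 33 and 37 in the LD1 libraries and 3, 41 and 309 in the LD3 libraries. The other DELLA genes RGA1, GAI and RGL3 had +1.56 (SE 1.08), −0.22 (SE 0.94) and −0.91 (SE 1.17).

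Epidermal genes had 9 tested members with a median log2 change of +0.15, and none passed. ATML1 and PDF1, markers of the outer cell layer, had +0.18 (SE 0.86) and +0.15 (SE 0.44). Pollen genes had 6 tested members, all negative, with a median of −1.57, at +0.99 in libraries A and B and −3.27 in library C on a log2(CPM + 2) scale. Their share was 0.885% in LD0 B and 1.15% in LD1 B and at most 0.192% in the other libraries. LD0 B and LD1 B are also the libraries that stood apart for the lower genes. Vascular genes had 2 tested members, with −0.96 for SUC2 and −1.80 for HA3, and trichome and stomatal genes none.

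Mitochondrial genome loci had 12 tested of 61, with a median log2 change of −1.20, 1 positive and 11 negative. ATMG01380 and ATMG00090 had long-day libraries below LD0, with −2.53 (SE 0.89) and −4.92 (SE 1.78), or 16.7% of the tested loci beside 1.34% of all tested genes. The median was +0.19 for LD1 and −2.73 for LD3, and the share reached 2.76% in LD1 C beside 0.518% to 0.821% in LD0 and 0.218% to 0.334% in LD3. Plastid loci had 19 tested of 85, with a median of −0.17, at +1.21 for LD1 and −1.06 for LD3. None of these loci passed.

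Most lists had no call in the main test, so the counts under the unadjusted threshold and by other tools are given for them. Over all tested genes an unadjusted p under 0.05 was found for 3.03% on the positive and 5.47% on the negative side. Positive genes under this threshold were 2 of 14 floral promoters (SOC1 and SPL9), 1 of 9 floral repressors (AP2), 2 of 9 gibberellin genes (RGL1 and GA20OX2), 2 of 24 photosynthesis genes (PSBP-1 and PSBO1), 1 of 21 meristem genes (PNF), 1 of 12 DNA replication genes (MCM2), 1 of 11 cytokinin genes (CKX3) and 1 of 17 sugar genes. Negative genes under it were 1 of 9 floral repressors (TOE2), 3 of 18 clock genes (GRP7, GRP8 and RVE8), 3 of 12 mitochondrial loci, 1 of 19 plastid loci, 1 of 9 cold genes and 4 of 17 sugar genes. The shares of 1 of 21 meristem genes (4.76%) and 1 of 19 plastid loci (5.26%) were close to those over all genes. None were found among the 17 mitosis, 9 epidermal, 6 nucleolar, 6 pollen and 2 vascular genes. DESeq2 called SOC1, RGL1 and 1 of 180 ribosomal genes (AT3G43980) higher, beside 0.204% of all tested genes. It called XERO2, ATMG00090, 4 of 8 heat shock genes, 13 of 22 seed genes and 4 of 17 sugar genes lower, beside 2.16%. Limma-voom called SOC1, PSBP-1 and 8 of 180 ribosomal genes higher (beside 0.366%), and SESA5 and STP4 lower (beside 0.269%). Neither called a member of the other lists.

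LD3 against LD1 was tested in the same fit, to see where the mean over both time points hides a difference. No gene passed, and 379 genes (4.08%) had an unadjusted p under 0.05. Against LD0, 0 genes passed for LD1 alone and 0 for LD3 alone. The edgeR adjusted p for LD1 and LD3 was 0.126 and 0.316 for STP4, and 0.7715 and 0.205 for AT1G68250. Both genes therefore passed only in the mean over the time points. STP4 had log2 changes of −8.83 for LD1 and −4.31 for LD3 (unadjusted p = 0.00347 and adjusted p = 0.973 for the difference, edgeR). AT1G68250 had −4.84 and −7.11 (unadjusted p = 0.0365), SESA5 −2.32 and −4.74 (unadjusted p = 0.00556) and SOC1 +4.78 and +4.84 (unadjusted p = 0.941), all from edgeR. In the authors' deposited table, SOC1 had log2 fold changes of 4.998 (unadjusted p = 0.00551) for LD1 and 5.06 (0.00432) for LD3 against LD0. The authors' deposited table gave STP4 −8.98 (unadjusted p = 0.000127) and −4.16 (0.0112), and AT1G68250 −4.82 (0.00462) and −7.04 (0.000175).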

How the data were processed

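The authors deposited read counts per locus in 16 columns, which per the file headers came from BLASTN 2.2.21 or 2.2.13. For the build, filters, strand use and multiple matches nothing is stated in the sources. Columns were summed per library and empty cells (49.0%) read as 0, so where reads 1 and 2 have separate columns a fragment can count in both. The authors also deposited pairwise log2 fold changes with an unadjusted p-value, for which the submitters' processing notes name edgeR. Of the loci, 23073 matched RefSeq TAIR10.1, used for names only. No sequences or coordinates are given.

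Counts were tested with edgeR 4.0.16 (R 4.3.3; glmQLFit, TMM, filterByExpr with minimum count 10) on time point plus preparation over all 9 libraries, leaving 5 residual degrees of freedom (common biological coefficient of variation 0.898). Adjusted p-values are Benjamini-Hochberg values over 9300 genes, threshold 0.05. Each standard error (SE) was worked back from the test, as the absolute log2 change divided by the square root of the F statistic. DESeq2 1.42.0, limma 3.58.1 (voom), other scalings and filters, subsets and leaving out each library were alternatives. The test was run on simulated data.

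Genes and the 21 lists were chosen with earlier results of these data known. Named genes were the called ones, 12 per direction with separate libraries (smallest p, mean of at least 20 reads), up to 4 per list with separate libraries, up to 5 loci per direction with reads on one side only, and 10 set genes. Other list members were picked after their values were seen. Ratios of pooled reads have exact 95% intervals for counting error only.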

Additional observations from a re-analysis of the deposited data

How the results depend on the processing

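The count of 2 called genes became 220 by DESeq2, 59 by limma-voom and 413 with no low-count filter, 1 with a minimum count of 30, and 0 with no preparation term, with 1 coefficient for all long-day libraries, in libraries A and B alone, after thinning and from read 1 alone. Leaving out each library gave 0 to 43, with 5 without LD0 B and 43 without LD1 B, all lower. Genes with an unadjusted p under 0.05 numbered 1218, 2071 and 2213 by DESeq2, limma-voom and no filter, 452 with a minimum count of 30, 207 in A and B, 454 from read 1 and 233 when thinned, and 356 (without LD0 C) to 1256 (without LD1 B) with a library left out. Genes with separate libraries, 311 in all, numbered 404 with no filter, 167 with a minimum count of 30, 500 in A and B, 171 from read 1, 73 when thinned and 325 to 1012 with a library left out. RLE size factors moved their split from 186 higher and 125 lower to 138 and 165. The split was 188 and 216 with no filter, 79 and 88 with a minimum count of 30 and 32 and 41 when thinned. The higher side stayed larger with upper-quartile factors (200 and 106), in A and B (273 and 227) and from read 1 (106 and 65). Fewer genes were tested in A and B (2850) and when thinned (2034). With fewer libraries to compare, in A and B or with a library left out, separation is easier to reach. The cause of these shifts was otherwise not tested.

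The sugar list's median was −3.54 when thinned. With a library left out, medians ran from 0.55 to 0.72 for ribosomal, −6.24 to −2.34 for seed, −4.94 to −2.12 for heat shock and −2.11 to −0.36 for sugar genes. Reversed values were +2.49, +0.24 and +0.09 for TFL1 without LD0 C, LD1 C and LD3 C, +0.0065 for CLV3 without LD0 C and −0.13 for FT without LD3 C. With a library left out the highest value was +4.79 for FT, and the lowest were −2.78 for TFL1 and −0.58 for CLV3. Of 855 values for 45 named genes, 766 kept direction and side of the threshold, 61 newly passed, 23 no longer passed and 5 reversed. The replicate block by letter gave 2 calls, 755 genes under the unadjusted threshold and a sugar median of −0.88, beside −1.60 without the block. Same-lettered libraries had deviations correlated at r = 0.0779 to 0.348, over 0.1 in 8 of 9 pairs including every pair of B and of C. A pairing was taken only where every pair was over 0.1, so the letters were not used as one. Shallow libraries, down to 97153 reads, limit what LD0 A and B, LD1 A and LD3 A can show for genes under 25.3, 26.3, 18.95 and 22.5 CPM, in that order.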
